A study of Mus musculus with 1024 samples.

Results

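Glycolysis was followed through 10 of its genes, Hk1, Hk2, Pfkl, Pfkp, Pfkfb3, Aldoa, Pgk1, Eno1, Pkm and Ldha, in single cells sorted from the mouse aorta. They were chosen by name, as rows of the deposited table of counts, and all 10 were among its 24422 genes. Wells were kept from 20000 counts on genes and 500 detected genes upward, which left 784 of 1024. The RNA of each sorted cell was read with Smart-seq2, a plate-based method that makes full-length cDNA from polyadenylated RNA and has no molecular identifiers, so that counts are of reads and not of molecules.

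All wells came from mice aged 3 months and carried 1 strain label, a floxed Amotl2 allele (spelled "flow" in the labels) with Cdh5-RREert and ROSA26-EYFP. The study's methods describe Amotl2 flox/flox mice of C57BL/6 background and both sexes bred with Cdh5(PAC)CreERT2 and a ROSA26-EYFP reporter and given tamoxifen. Cre is driven by the Cdh5 promoter and deletes Amotl2 only where that promoter is active, in endothelial cells (ECs), so a KO well of another cell type is not expected to carry the deletion. AmotL2 is a scaffold protein that ties VE-cadherin at endothelial junctions to the actin cytoskeleton. The labels do not say whether the WT mice, amotl2 ec+/ec+, carried Cre or received tamoxifen.

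The cells were sorted through 2 gates after removal of Cd45+ cells, Cd31+Cd45- (labelled Endothelial) and Cd31-Cd45- (labelled DoubleNegative), in 2 sorts per genotype. The study describes several mice per genotype in 2 independent experiments, but the labels tie no well to a mouse and do not say whether the sorts were separate animals, so the wells of a genotype, gate and sort were summed, and each of these 8 sums was 1 replicate. In the fits between genotypes and between gates, a p-value then sets a change against the spread between the 2 sorts. In the fit between sorts it is set against the spread between the genotypes. In the split of the DoubleNegative gate by markers, the sums of a class differ in genotype or in sort. In sort 1 each genotype had a plate of its own, and effects of plate and of genotype cannot be told apart, while in sort 2 both shared 1 plate. The Endothelial sums held 235 (WT, sort 1), 50 (WT, sort 2), 302 (KO, sort 1) and 89 (KO, sort 2) wells, and the DoubleNegative sums 42, 12, 40 and 14 wells in the same order. A sum had between 926398 and 94881185 counts on genes, and the median well of a sum between 46891 and 252839. Levels are given as CPM, the counts of a gene scaled to a fixed total of counts on genes in its sum, in which deep wells weigh more than shallow ones, and a count of 3 was worth between 0.0316 and 3.24 CPM.

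The gates held what their labels say, with few exceptions. The 8 endothelial markers took 12590.9 to 15517.8 CPM in the Endothelial sums and 24.8 to 737.8 CPM in the DoubleNegative sums, and 656 of the 676 Endothelial wells were endothelial by markers. The highest DoubleNegative value was that of WT sort 2, in which 1 well was endothelial by markers. Of the 108 DoubleNegative wells, 71 had more counts on smooth muscle markers and 37 more on fibroblast markers. Smooth muscle markers took 737 to 1667 CPM in the Endothelial sums and 21002 to 53518 CPM in the DoubleNegative sums. Pericyte markers took 0.118 to 61.2 CPM and 1514 to 1665 CPM, and pericytes were not set apart as a class. Leukocyte markers summed to at most 3.29 CPM with Ptprc, which encodes Cd45, at 1 count in all, the 4 haemoglobin genes were listed at 0 (near-identical pairs whose reads may go unassigned), and adipocyte markers were above 0 in 1 sum only, WT Endothelial sort 1 (166.3 CPM). Counts per gene do not resolve the deleted part of Amotl2. Its level was 59.9 and 94.0 CPM in the WT and 51.9 and 45.7 CPM in the KO Endothelial sums. EYFP, which Cre switches on, was at 2.38 and 0.353 CPM in WT and at 113.3 and 85.5 CPM in KO ECs and at 0 in all DoubleNegative sums.

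In glycolysis, glucose is phosphorylated by a hexokinase, committed by phosphofructokinase, split by aldolase and carried through phosphoglycerate kinase and enolase to pyruvate kinase, after which lactate dehydrogenase turns pyruvate into lactate. Most steps have several isoenzymes from separate genes, and tissues differ in which they use. ECs are known for making much of their ATP by glycolysis although they line oxygenated blood, and for Pfkfb3, whose product makes fructose-2,6-bisphosphate, the strongest activator of phosphofructokinase.

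The genes lie apart in the genome, and their positions are given in GRCm38 with GENCODE annotation. Hk1 is at chr10:62268855-62379908 (22 exons in its principal transcript) and Hk2 at chr6:82725025-82774454 (18 exons). Pfkp is at chr13:6579768-6648777 (22 exons) and Pfkfb3 at chr2:11471433-11554077 (15 exons). All 4 are on the minus strand. These are the 3 members called between the gates and Hk1, the counterpart of Hk2 among the hexokinases. The 250 bases before each of their RefSeq start sites (GRCm38.p6, minus strand) are printed 5′ to 3′. Capitals mark each ACGTG, a form of the core of the hypoxia response element, read on either strand (ACGTG or CACGT). The other form, GCGTG, was neither marked nor counted. Hk1 and Pfkfb3 each have 2 start sites in the table, and counts per gene do not say which was used.
Hk1, first start site, chr10:62379909-62380158: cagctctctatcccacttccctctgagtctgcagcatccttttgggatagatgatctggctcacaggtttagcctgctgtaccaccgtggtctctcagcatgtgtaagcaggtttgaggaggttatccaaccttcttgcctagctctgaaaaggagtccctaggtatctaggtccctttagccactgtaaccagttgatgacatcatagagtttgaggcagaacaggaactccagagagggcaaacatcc
Hk1, second start site, chr10:62340422-62340671: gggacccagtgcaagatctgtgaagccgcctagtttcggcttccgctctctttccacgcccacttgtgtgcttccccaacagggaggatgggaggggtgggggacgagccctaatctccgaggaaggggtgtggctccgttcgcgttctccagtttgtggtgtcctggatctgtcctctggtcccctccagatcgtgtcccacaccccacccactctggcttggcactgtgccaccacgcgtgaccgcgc
Hk2, chr6:82774455-82774704: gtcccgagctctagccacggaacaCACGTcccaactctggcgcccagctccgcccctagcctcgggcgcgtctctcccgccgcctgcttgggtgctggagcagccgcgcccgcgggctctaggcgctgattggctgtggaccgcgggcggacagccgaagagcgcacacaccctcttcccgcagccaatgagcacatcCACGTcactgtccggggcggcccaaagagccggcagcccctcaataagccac
Pfkp, chr13:6648772-6649021: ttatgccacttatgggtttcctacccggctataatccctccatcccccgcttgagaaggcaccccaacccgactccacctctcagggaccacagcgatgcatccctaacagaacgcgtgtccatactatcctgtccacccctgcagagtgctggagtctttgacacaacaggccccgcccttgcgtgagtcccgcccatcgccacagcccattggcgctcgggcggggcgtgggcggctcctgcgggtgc
Pfkfb3, first start site, chr2:11553930-11554179: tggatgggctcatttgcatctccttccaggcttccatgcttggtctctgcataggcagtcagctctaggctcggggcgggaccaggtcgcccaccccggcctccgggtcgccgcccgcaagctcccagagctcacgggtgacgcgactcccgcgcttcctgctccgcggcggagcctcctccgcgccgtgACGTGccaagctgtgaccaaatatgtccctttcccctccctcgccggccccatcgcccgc
Pfkfb3, second start site, chr2:11502091-11502340: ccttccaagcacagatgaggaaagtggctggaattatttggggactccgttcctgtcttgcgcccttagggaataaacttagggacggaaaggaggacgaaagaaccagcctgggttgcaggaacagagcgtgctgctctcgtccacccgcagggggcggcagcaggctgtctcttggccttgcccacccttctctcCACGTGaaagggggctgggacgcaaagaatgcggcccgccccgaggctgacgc
The marked letters occurred before the start sites of Hk2 and of Pfkfb3 and not in the windows of Hk1 and Pfkp. The unmarked GCGTG does occur in the window of Pfkp and in the second window of Hk1. Over the 18 windows of the 10 members, 8 held them, in Hk2, Pfkfb3, Aldoa, Pgk1, Pkm and Ldha, against 16.6% of all 32851 windows. A match in these letters is a description and says nothing of binding.

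Per kb of transcript, Aldoa was the highest member in both gates. In the Endothelial sums its level was 369 ± 42.2 CPM per kb (SD, n = 4), followed by Ldha at 183 ± 38.5 and Pkm at 126 ± 16.3 CPM per kb. The ranges of Ldha (140.8 to 233.9) and Pkm (104.8 to 141.4) overlapped, and that of Aldoa (328.4 to 416.7) lay above both. Pfkfb3, Pfkp, Pgk1, Hk1 and Pfkl followed, all between 12.8 and 16.8 CPM per kb in the mean and with overlapping ranges, and Eno1 (0.678 ± 0.199) and Hk2 (0.0772 ± 0.0965) were at the bottom. In the DoubleNegative sums Aldoa (435 ± 42.6) was followed by Pkm (203 ± 48.8) and Ldha (130 ± 51.1), again with overlapping ranges for the latter pair. Pfkp then stood alone at 42.7 ± 6.08 CPM per kb, above Pgk1 (21.9 ± 8.99), and Pfkl, Hk2, Hk1, Pfkfb3 and Eno1 had means of 6.94 CPM per kb or less.

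Levels also depend on how reads were counted. Reads that align to several places made up 32.0% of all counts in the table and were not assigned to a gene, and of all stretches of 50 bases in the principal transcript, 72.2% of Eno1 and 68.0% of Pgk1 also occur in transcripts of other genes, mainly Eno1b and Pgk1-rs7. The share was 34.4% for Pkm, 17.1% for Ldha, 13.9% for Aldoa, 0.654% for Pfkfb3, 0.0543% for Pfkl and 0 for Hk1 and Hk2. For Pfkp it was 17.1%, all within Pitrm1, whose 3′ end overlaps that of Pfkp on the opposite strand. Of further glycolysis genes called below, Ldhb had 27.0%, Gpi1 25.3% and Tpi1 7.51%. The levels of Eno1, Pgk1, Pkm, Ldha and Aldoa are uncertain because reads can align to several places. That of Pfkp is uncertain because of its overlap with Pitrm1 at the same place in the genome. The share does not give the size of the error. Eno1 rested on 1 to 154 counts a sum.

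**Figure D1:**
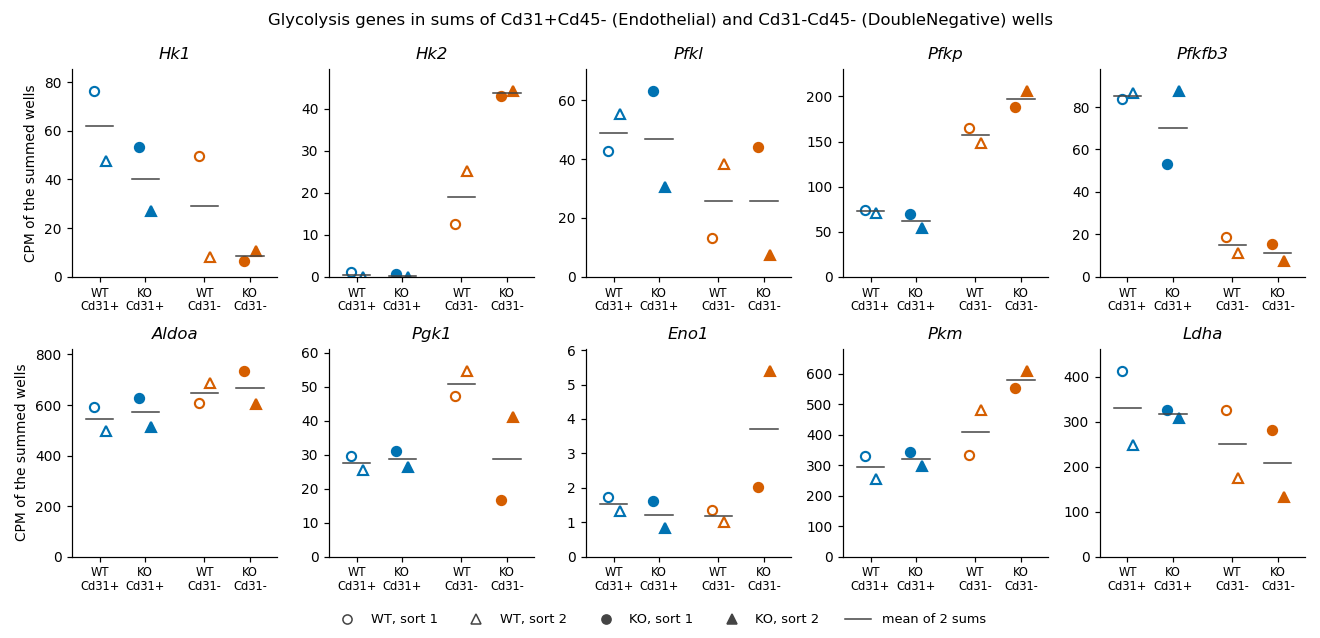
Level of each of the 10 genes (y axis, CPM of the summed wells, linear from 0) in the 8 sums, by genotype and gate (x axis). Circles are sort 1, triangles sort 2, open symbols WT, filled symbols KO, and lines are means of 2 sums. Hk2 and Pfkp are higher in all 4 Cd31- sums than in any Cd31+ sum, and Pfkfb3 is lower.

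Between the gates, 3 of the 10 genes differed, Pfkfb3 higher and Hk2 and Pfkp lower in Endothelial sums. Of all 12729 genes tested, 19% were called in this comparison (edgeR quasi-likelihood test, Benjamini-Hochberg adjusted p under 0.05), 9.79% higher and 9.25% lower, so a count of 3 in 10 is little above the background. At an unadjusted p under 0.05 it was 5 of 10 members and 30.8% of all genes. Groups did not overlap in 1 member above (17.3% of all genes) and 2 members below (8.98%), 26.2% of all genes in both directions. The median log2 change of the members was -0.45, against 0.15 over all genes.

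At the first step, Hk1 was above Hk2 in every EC sum, and Hk2 above Hk1 in every Cd31- sum but that of WT sort 1. Hk2, the insulin- and hypoxia-responsive hexokinase of muscle, was at 1.10, 0, 0.601 and 0 CPM in the Endothelial sums (WT sort 1, WT sort 2, KO sort 1, KO sort 2) and at 12.5, 25.3, 43.0 and 44.3 CPM in the DoubleNegative sums. Every DoubleNegative sum was above every Endothelial sum, and the log2 change was -6.01 ± 1.13 (SE, edgeR adjusted p = 0.00704). With 2 of the 4 Endothelial sums at 0 the size of this change depends on how 0 is treated. Hk1, the hexokinase found in most tissues, ran the other way. Its level was 76.4, 47.6, 53.4 and 26.9 CPM in the Endothelial sums and 49.7, 8.10, 6.68 and 10.8 CPM in the DoubleNegative sums. The WT DoubleNegative sum of sort 1 lay within the Endothelial range, and the log2 change of 1.54 ± 0.57 was not called (edgeR adjusted p = 0.0993). That sum had 330 counts of Hk1 from 11 of its 42 wells, and 1 well held 44.5% of them. Without it the change was 2.50 (adjusted p = 0.0111), and with muscle-marker DoubleNegative wells alone it was 2.37 (adjusted p = 0.0181), an alternative chosen after the data were seen.

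The phosphofructokinase step differed both in subunit and in regulator. Pfkfb3 was at 83.6, 86.5, 53.0 and 87.6 CPM in the Endothelial sums and at 18.99, 11.1, 15.3 and 7.56 CPM in the DoubleNegative sums. The lowest Endothelial sum was above the highest DoubleNegative sum, and the log2 change was 2.40 ± 0.39 (edgeR adjusted p = 0.00377). Pfkp, the platelet-type subunit, was at 74.1, 70.9, 69.5 and 54.2 CPM in ECs and at 165.5, 148.8, 188.1 and 206.2 CPM in Cd31- cells, a log2 change of -1.51 ± 0.24 (adjusted p = 0.00356). The groups were again apart. Pfkl, the liver-type subunit, was spread over 30.6 to 63.2 CPM in ECs and 7.56 to 44.2 CPM in Cd31- cells, with overlap and no call (log2 change 0.76 ± 0.57, edgeR adjusted p = 0.418).

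None of the members from aldolase onward was called between the gates. Aldoa, which splits fructose-1,6-bisphosphate, was at 590.7, 496.2, 629.6 and 511.5 CPM in ECs and at 607.1, 686.2, 735.2 and 602.3 CPM in Cd31- cells, and its groups overlapped (log2 change -0.35 ± 0.23, edgeR adjusted p = 0.347). Pkm, whose splice forms M1 and M2 the counts do not separate, was at 330.6, 254.9, 343.9 and 298.8 CPM in ECs and at 333.8, 481.8, 551.0 and 608.8 CPM in Cd31- cells. All Cd31- sums but that of WT sort 1 were above every EC sum, and the log2 change of -0.78 ± 0.25 was not called (edgeR adjusted p = 0.0620). It was called with DESeq2 (adjusted p = 0.0155) and with muscle-marker wells alone (log2 change -1.01, edgeR adjusted p = 0.00703). In simulated counts of this comparison with 200 genes changed by a log2 of 1, DESeq2 recovered 8 and made 23 false calls. edgeR recovered 0 and made 0 false calls. Ldha, the muscle-type subunit of lactate dehydrogenase, was between 248.7 and 413.0 CPM in ECs and between 133.9 and 327.1 CPM in Cd31- cells (log2 change 0.40 ± 0.34, edgeR adjusted p = 0.490). Pgk1 and Eno1 had overlapping groups as well, with log2 changes of -0.54 ± 0.39 and -0.72 ± 0.96 and edgeR adjusted p of 0.402 and 0.676. A p above the threshold does not show that these levels were equal.

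**Figure D2:**
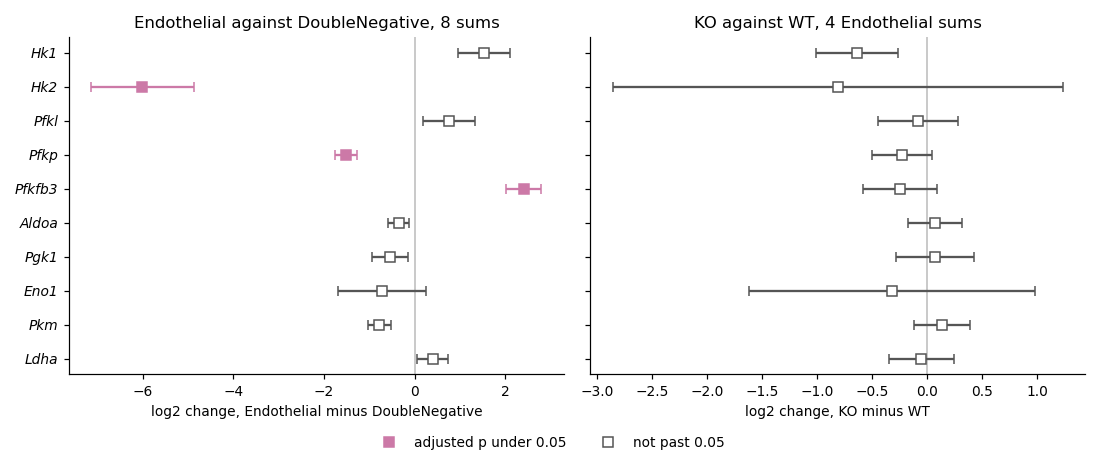
Log2 change with its SE (x axis) for each of the 10 genes (y axis), between the gates over 8 sums (left) and between KO and WT over the 4 Endothelial sums (right), from edgeR. Filled squares are past an adjusted p of 0.05, which holds for Hk2, Pfkp and Pfkfb3 on the left and for no gene on the right.

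Other genes of the pathway gave a similar mixture. Of 29 further glycolysis genes, 18 passed the filter on low counts, and 1 of these was called higher and 3 lower in ECs. Bpgm, which makes 2,3-bisphosphoglycerate and is best known from red blood cells, was at 345.9, 357.2, 383.7 and 408.8 CPM in ECs and at 26.2, 35.4, 12.5 and 17.3 CPM in Cd31- cells (log2 change 4.04 ± 0.29, edgeR adjusted p = 0.000140). Bpgm shared no stretch of 50 bases with another gene. Per kb, Bpgm (168 ± 12.7 CPM per kb) stood between Ldha and Pkm in ECs. The genes called lower were Ldhb, the heart-type subunit of lactate dehydrogenase, Eno2, the neuronal enolase, and Tpi1, triosephosphate isomerase. Ldhb was at 12.9 to 19.9 CPM in ECs and 68.7 to 208.6 CPM in Cd31- cells (log2 change -3.14 ± 0.43, edgeR adjusted p = 0.00151). Eno2 was at 0 to 1.20 CPM against 12.2 to 18.4 CPM, and Tpi1 at 154.9 to 191.2 CPM against 241.0 to 345.1 CPM. Slc2a1, the glucose transporter GLUT1, added after the values were seen, was at 20.1 to 39.4 CPM in ECs and 18.2 to 66.9 CPM in Cd31- cells and was not called. The sum over all 39 genes was 2268.3 to 2683.3 CPM in ECs and 2408.4 to 3007.9 CPM in Cd31- cells, and these ranges overlapped.

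Of the genes that bring pyruvate into mitochondria or hold it back, 4 of 12 were called lower in ECs, the pyruvate carrier subunits Mpc1 and Mpc2 and the pyruvate dehydrogenase kinases Pdk3 and Pdk4, and none higher (0 to 4 lower when 1 sum was left out, 0 without KO Endothelial sort 2 and 2 with the preparation, 1 genotype and sort, as a block). Their log2 changes lay between -2.47 (Pdk4) and -1.02 (Mpc2). In the pentose phosphate pathway, 0 of 7 genes were called by edgeR (lowest adjusted p = 0.0888, 1 gene at an unadjusted p under 0.05, and 1 lower by DESeq2). In the hypoxia pathway, 1 of 7 tested genes was higher and 1 lower. Epas1, which encodes HIF-2α and is typical of endothelium, was at 1413.5 to 1622.3 CPM in ECs and 71.2 to 151.8 CPM in Cd31- cells (log2 change 3.63 ± 0.31, edgeR adjusted p = 0.000235), and Egln1, a prolyl hydroxylase that marks HIF for degradation, was lower (log2 change -1.53 ± 0.42, adjusted p = 0.0345, not called with that block nor without any 1 sum other than WT DoubleNegative sort 2). Of 7 tested hypoxia-induced genes outside glycolysis, Ndrg1 was higher (1.26 ± 0.25, edgeR adjusted p = 0.00895, with no gene of the list called higher without KO Endothelial sort 2) and Adm, the peptide adrenomedullin, lower (-6.30 ± 0.80, adjusted p = 0.00106). Genes raised by tissue dissociation also differed by gate, with Fos, Egr1 and Atf3 of 10 called lower in ECs, and their part in the differences above was not tested.

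Shares within a family do not depend on library size. Hk1 made up 98.4% to 99.6% of the counts of the 5 hexokinase genes in the Endothelial sums. In the DoubleNegative sums its share was 79.9%, 24.2%, 12.2% and 19.6%, from 413, 33, 517 and 51 counts, and the rest was nearly all Hk2. The groups did not overlap (exact permutation test of 4 against 4 sums, two-sided, p = 0.0286, the smallest this design can give, adjusted p = 0.0457 over 8 shares). Ldha made up 92.6% to 96.2% of the lactate dehydrogenase counts in ECs and 47.0% to 82.6% in Cd31- cells, with the same p and adjusted p by the exact test. Of the 3 phosphofructokinase subunits, Pfkl took 28.5% to 38.4% and Pfkp 42.2% to 55.9% in ECs, against 2.75% to 16.9% and 65.0% to 78.9% in Cd31- cells, again without overlap. Eno1 took 32.2% to 66.1% of its family's counts in ECs and 6.25% to 15.6% in Cd31- cells, but on 14 to 233 counts a sum and with most of its transcript shared with Eno1b. The share of Pfkfb3 among Pfkfb1 to Pfkfb4 was 67.2% to 82.0% in ECs and 32.6% to 87.5% in Cd31- cells, which overlapped (exact permutation p = 0.200, adjusted p = 0.267). Pkm was the only member of its family with a count in any sum, with Pklr at 0. In all, 5 of the 8 shares passed. None of the 5 did with wells thinned to 20000 counts or with the sums restricted to wells above 100000 counts. There the adjusted p of Hk1, Pfkl, Pfkp and Ldha was 0.0571 and that of Eno1 0.274 and 0.0762. For Hk1, Pfkl, Pfkp and Ldha the exact p before adjustment stayed at 0.0286. Their adjusted p rose because Eno1 no longer reached that value. Paired by preparation, an exact test by sign flips of 4 pairs cannot go below 0.125, and the adjusted p of all 5 was then 0.200.

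**Figure D3:**
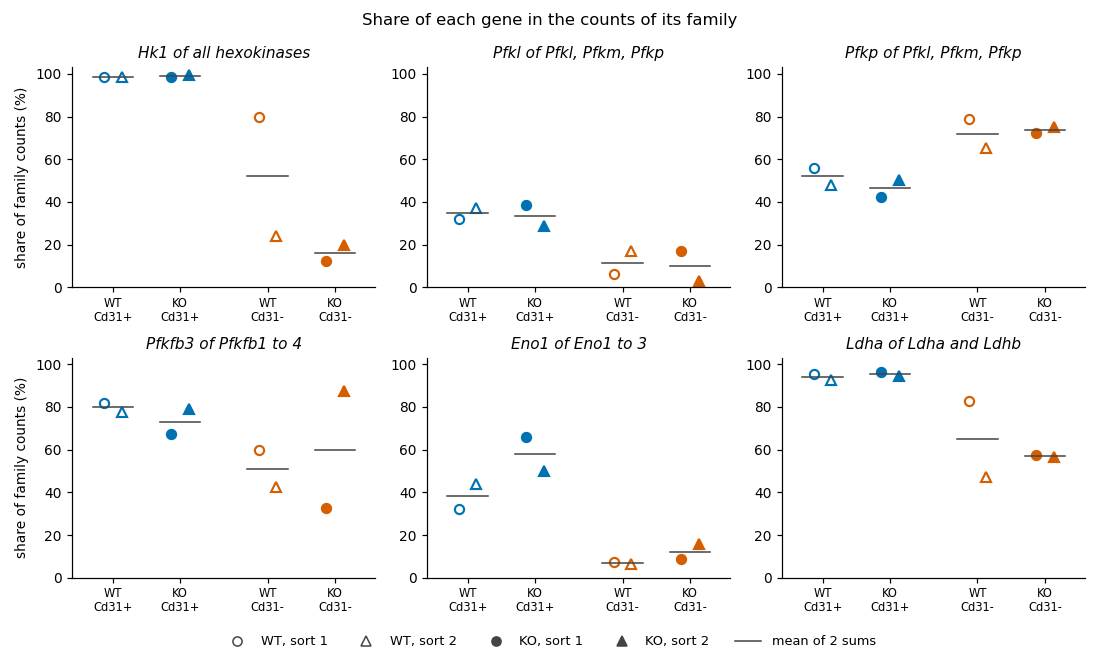
Share of a gene in the counts of its family (y axis, percent, from 0) in the 8 sums by genotype and gate (x axis), with symbols as in the plot of levels. The Cd31+ sums of Hk1 lie at 98.4% or above, and the Cd31- sums between 12.2% and 79.9%.

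The DoubleNegative gate was split by markers into smooth muscle and fibroblast wells, with no well between 25% and 75% of muscle among the counts of both marker sets. Sums of under 3 wells were left out, which left 4 muscle-marker sums (31, 13, 16 and 11 wells for KO sort 1, KO sort 2, WT sort 1 and WT sort 2) and 2 fibroblast-marker sums, both of sort 1 (9 KO and 26 WT wells). Of 9 members tested, 1 was called, higher in muscle-marker sums, against 9.75% of all 10439 genes (4.39% higher and 5.36% lower, and 20.8% at an unadjusted p under 0.05, with 2 members). In Aldoa, Eno1 and Pkm, 3 of the 10, all muscle-marker sums were above both fibroblast-marker sums (17.4% of all genes, with 14.2% below and 31.6% in both directions). Pkm was at 669.2, 673.1, 561.1 and 497.7 CPM in muscle-marker and at 158.5 and 198.4 CPM in fibroblast-marker sums. All 4 muscle-marker sums were above both others, with a log2 change of 1.57 ± 0.34 (edgeR adjusted p = 0.0131). Without the KO fibroblast-marker sum it was 1.45 (adjusted p = 0.0707), and without any other single sum it was 1.48 to 1.70 and called. Aldoa was at 841.6, 622.8, 979.7 and 705.7 against 382.0 and 385.1 CPM, without overlap, but was not called (log2 change 0.84 ± 0.32, edgeR adjusted p = 0.143). Pfkp, at 152.8 to 213.7 against 141.7 and 176.3 CPM, overlapped.

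Both hexokinases were uneven within the classes. Hk1 was at 39.2 CPM in the WT muscle-marker sum of sort 1 and at 2.76 to 8.49 CPM in the other 3 muscle-marker sums, and at 56.0 CPM in the WT and 19.7 CPM in the KO fibroblast-marker sum. Hk2 was at 25.5 to 50.4 CPM in muscle-marker sums and at 91.6 CPM (KO) and 3.61 CPM (WT) in fibroblast-marker sums. Neither was called between the classes (edgeR adjusted p of 0.478 and 0.764). Of 15 further glycolysis genes tested, Ldhb (115.5 to 257.9 against 25.3 and 44.9 CPM, log2 change 2.16 ± 0.51, adjusted p = 0.0205) and Gpi1, glucose-6-phosphate isomerase (log2 change 1.27 ± 0.35, adjusted p = 0.0437), were higher in muscle-marker sums and none was lower. The number called fell to 0 without the WT fibroblast-marker sum, without the KO muscle-marker sum of sort 1 or without the WT muscle-marker sum of sort 2, and to 1 without any of the others. The dissociation-induced genes Fosb, Jun, Junb and Ier3 were called lower there (1 without the KO and 9 without the WT fibroblast-marker sum), and their part was not tested.

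**Figure D4:**
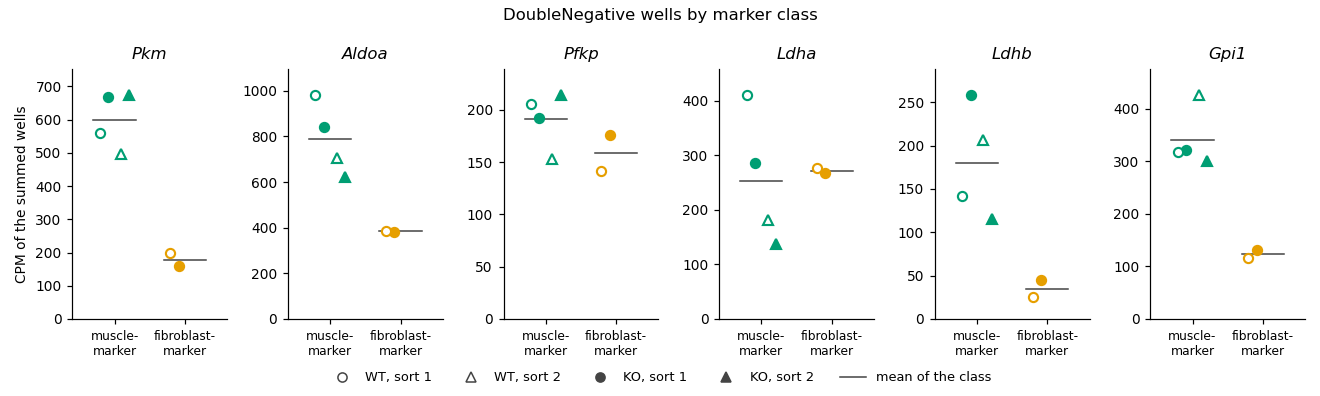
Levels (y axis, CPM, linear from 0) of Pkm, Aldoa, Pfkp, Ldha, Ldhb and Gpi1 in 4 muscle-marker and 2 fibroblast-marker sums of DoubleNegative wells (x axis). Circles are sort 1, triangles sort 2, open symbols WT and filled symbols KO, and lines are class means. Pkm lies at 497.7 CPM or above in muscle-marker and at 198.4 CPM or below in fibroblast-marker sums.

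Deletion of Amotl2 in ECs was compared with WT over the 4 Endothelial sums. None of the 10 genes was called, and neither was any of the 12702 genes tested (edgeR, 0.0% called, 468 genes or 3.68% and 0 of the 10 members at an unadjusted p under 0.05). The count over all genes was 1 with the sort as a block, 37 with DESeq2 and 5 (without KO sort 1), 35 (KO sort 2), 221 (WT sort 2) and 311 (WT sort 1) when 1 sum was left out, and no member was called in any of these fits. Hk1 had the largest change among the well-counted members, from 76.4 and 47.6 CPM in WT to 53.4 and 26.9 CPM in KO, lower in KO in both sorts but with overlap between the groups (log2 change KO minus WT -0.64 ± 0.37, edgeR adjusted p = 1.00, unadjusted p = 0.117). Pfkp was the 1 member whose groups did not overlap, at 74.1 and 70.9 CPM in WT and 69.5 and 54.2 CPM in KO (log2 change -0.23 ± 0.27, edgeR unadjusted p = 0.417). Over all genes tested, 29.5% had groups that did not overlap, 14.9% with KO above and 14.6% with KO below WT.

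The other changes between KO and WT ECs were small beside their errors, which does not show that levels were equal. In simulated counts with 200 genes changed, the edgeR fit of this comparison recovered 0 of them at a log2 change of 1. At a log2 change of 3 it recovered 144. Pfkfb3 was at 83.6 and 86.5 CPM in WT and at 53.0 and 87.6 CPM in KO, where the KO sum of sort 1 stood apart (log2 change -0.25 ± 0.34). Aldoa (0.07 ± 0.25), Pkm (0.14 ± 0.25), Ldha (-0.05 ± 0.29), Pgk1 (0.07 ± 0.35) and Pfkl (-0.08 ± 0.36) had changes below their SE. Those of Hk2 (-0.81 ± 2.05) and Eno1 (-0.32 ± 1.30) rested on few counts. The median over the members was -0.16, against 0.00252 over all genes, with 3 estimates above and 7 below 0. The further glycolysis genes (0 of 17 called), the genes of pyruvate entry (0 of 12), the pentose phosphate pathway (0 of 7) and the hypoxia pathway (0 of 7) gave no call by edgeR, with 0 genes at an unadjusted p under 0.05 in each. Dissociation-induced genes had a median log2 change of -0.70 with 10 of 10 estimates below 0, none called by edgeR or DESeq2 and 3 at an unadjusted p under 0.05 (7 called without WT sort 1), and their part in the values above was not tested.

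Shares within families were compared between the genotypes in ECs as well. Hk1 took 98.6% of hexokinase counts in WT and 99.1% in KO in the mean, and Ldha 94.1% and 95.3% of lactate dehydrogenase counts. Pfkp took 51.9% and 46.4% of phosphofructokinase counts and Pfkfb3 79.9% and 73.0% of its family, and Pfkl 34.8% and 33.4% of phosphofructokinase counts. The widest gap was that of Eno1, at 38.2% and 58.0% on few counts. With 2 sums against 2 an exact permutation test cannot go below 0.333, so it says nothing on whether these shares were equal.

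In Cd31- cells, where the deletion is not expected, KO and WT sums were compared in the same way. None of the 9 members tested was called and neither was any of 10544 genes (0.0% called, 275 genes or 2.61% and none of the members at an unadjusted p under 0.05 by edgeR, 5 genes called by DESeq2). Hk2 was at 12.5 and 25.3 CPM in WT and at 43.0 and 44.3 CPM in KO (log2 change 1.26 ± 0.79, edgeR adjusted p = 1.00). Pkm (333.8 and 481.8 against 551.0 and 608.8 CPM) and Pfkp (165.5 and 148.8 against 188.1 and 206.2 CPM) were also higher in both KO sums, and Pgk1 (47.2 and 54.7 against 16.7 and 41.0 CPM) lower. Counting Eno1, which was below the filter, 5 of 10 members did not overlap between the genotypes, 4 with KO above (13.6% of all genes) and 1 below (15.1%), beside 28.7% of all genes in both directions. The makeup of these sums differed between the genotypes in sort 1, where 26 of 42 WT and 9 of 40 KO wells were fibroblast-marker, and hardly in sort 2, with 1 of 12 and 1 of 14, and its part was not tested. With muscle-marker wells alone, an alternative chosen after the data were seen, Hk2, Pfkp, Pgk1 and Pkm were again not called, and with thinned wells the log2 change of Pfkp was -0.08 in place of 0.34. The difference between the gates in the genotype effect was tested as an interaction, in which no gene of 12729 passed (0.0% called, 657 genes or 5.16% and none of the members at an unadjusted p under 0.05 by edgeR, 46 genes called by DESeq2) and all 10 members had an adjusted p of 1.00.

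The 2 sorts of the Endothelial gate were compared in the same way, and no gene of 12702 was called (0.0% called, 993 genes or 7.82% and 1 member, Hk2, at an unadjusted p under 0.05 by edgeR, 106 genes called by DESeq2 4 with genotype as a block and 0 to 89 with 1 sum left out). In 7 members both sums of sort 2 were below both sums of sort 1 (28.4% of all genes), in Pfkfb3 both were above (12.2%), and Pfkl and Pfkp overlapped, while 40.6% of all genes did not overlap. Aldoa was at 590.7 and 629.6 CPM in sort 1 and at 496.2 and 511.5 CPM in sort 2, and Pkm at 330.6 and 343.9 against 254.9 and 298.8 CPM. Ldha was at 413.0 and 326.4 against 248.7 and 307.4 CPM and Hk1 at 76.4 and 53.4 against 47.6 and 26.9 CPM. Hk2 was listed at 0 in both sums of sort 2. The log2 changes of the others, sort 2 minus sort 1, ran from -0.70 (Hk1) to 0.46 (Pfkfb3), with edgeR adjusted p from 0.660 to 0.960. Plate and sequencing depth differed between the sorts, with the median well at 119656 (WT) and 252839 (KO) counts in sort 1 and at 161532 and 58190 in sort 2, and their part was not tested.

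**Figure D5:**
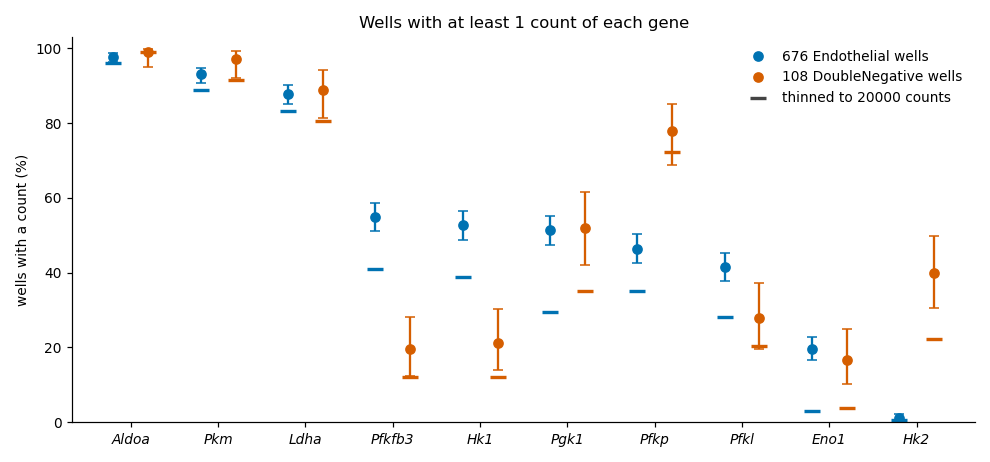
Share of wells with at least 1 count (y axis, percent) of each gene (x axis), in 676 Endothelial and 108 DoubleNegative wells, with exact binomial intervals of 95% (bars). Horizontal dashes give the share after each well was thinned to 20000 counts. Aldoa, Pkm and Ldha are found in 87.9% or more of Endothelial wells and Hk2 in 1.04%.

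The members differed widely in the share of single ECs in which they were found. Aldoa had a count in 661 of 676 Endothelial wells (97.8%, 95% exact binomial interval 96.4% to 98.8%), Pkm in 629 (93.0%) and Ldha in 594 (87.9%). Pfkfb3 was found in 371 wells (54.9%), Hk1 in 356 (52.7%), Pgk1 in 347 (51.3%), Pfkp in 314 (46.4%), Pfkl in 281 (41.6%) and Eno1 in 132 (19.5%). Hk2 had a count in 7 wells (1.04%, interval 0.417% to 2.12%), and 43 of 108 DoubleNegative wells (39.8%) had one. These intervals cover counting error only, wells are not replicates, and the median depth of the sums differed as given above. As a measure of counts in cells that should lack a gene, Cdh5 had one in 3 of 108 DoubleNegative wells (2.78%), a gate with 1 well that was endothelial by markers, and 20 of the 676 Endothelial wells were not endothelial by markers. The part of such counts in the 7 wells with Hk2 was not tested.

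After each well was thinned to 20000 counts, Hk1 was found in 38.9%, Pfkfb3 in 41.0% and Pfkp in 35.2% of Endothelial wells, and in 12.0%, 12.0% and 72.2% of DoubleNegative wells. Thinning lowered the shares and left the order between the gates as it was in these 3 genes. Hk2 fell to 0.444% in Endothelial and 22.2% in DoubleNegative wells. Aldoa (96.2%), Pkm (88.9%) and Ldha (83.1%) changed least in Endothelial wells, and Eno1 dropped to 3.11%.

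Few ECs had counts of both hexokinases, since few had a count of Hk2 at all. Whether the 2 exclude each other was not tested. Of the 676 Endothelial wells, 355 had counts of Hk1 only, 6 of Hk2 only, 1 of both and 314 of neither. Of the 108 DoubleNegative wells, 14 had Hk1 only, 34 Hk2 only, 9 both and 51 neither. For lactate dehydrogenase, 489 Endothelial wells had Ldha only, 105 both subunits, 6 Ldhb only and 76 neither, while 66 of 108 DoubleNegative wells had both. Among the 71 muscle-marker wells 52 had both and among the 37 fibroblast-marker wells 14. With 1 well as 1 cell, a missing count does not show that the gene was off.

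Levels also varied between ECs beyond the share of wells with a count. The middle 50% of Endothelial wells lay between 344.0 and 720.6 CPM for Aldoa, between 125.4 and 413.0 CPM for Pkm and between 113.2 and 464.4 CPM for Ldha, with medians of 527.1, 260.5 and 285.9 CPM. The 68 wells with the most raw counts of a gene held 40.1% of all its counts for Aldoa, 42.7% for Pkm and 44.1% for Ldha. They held 62.1% for Hk1, 64.8% for Pfkfb3 and 72.5% for Pfkp. Over the 3439 genes with a mean of at least 1 count in thinned wells the median was 58.1%. Aldoa, Pkm and Ldha were below and Hk1, Pfkfb3 and Pfkp above it. These shares also carry depth, since Endothelial wells had between 20120 and 2000302 counts and deep wells rank high. In thinned wells, variance beyond counting error was divided by the squared mean. With all Endothelial wells pooled, its median was 1.53 over these 6 members and 1.93 over the 3439 genes, with 3 members below. Pooling also takes in differences between the sums. Within KO sort 1 the median was higher over members than over all genes above the same limit (3.44 beside 2.36). It was lower in WT sort 1 (1.32 beside 1.68), WT sort 2 (0.328 beside 0.790) and KO sort 2 (0.388 beside 0.922). Of all counts of Hk2 in ECs, 37.6% came from 1 well.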

How the data were processed

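Single cells of mouse aorta were sequenced with Smart-seq2 in 1024 wells on 3 plates. The deposited values are raw counts of reads per gene that the authors made with HTSeq 0.9.1. Alignment was with STAR 2.7.7a to GRCm38 with spike-ins and EYFP added. The submitters' notes also name Picard 2.22.0, with which the study's methods describe the removal of duplicate reads. The summary lines of HTSeq (46.9% of all counts) and spike-ins (1.25%) were left out. No molecular identifiers were used, and intervals and floors of 3 counts cover counting error only.

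Wells with 20000 counts and 500 genes were summed by genotype, gate and sort, and the 8 sums of 926398 to 94881185 counts were fitted across all genes with edgeR 4.0.16 (TMM factors, filterByExpr, quasi-likelihood test, Benjamini-Hochberg adjustment over all genes tested, R 4.3.3). KO and WT were compared within each gate without a block, the gates over all 8 sums as the mean of the 2 genotypes in each, and muscle-marker with fibroblast-marker sums of the DoubleNegative gate. Shares of a gene in its family were compared by exact permutation, with p adjusted over 8 shares, of which 1 is not reported here. The labels number the sorts of each genotype and do not say whether sorts of the same number were a shared batch. Deviations from group means of WT and KO sums of the same sort number correlated at r = 0.139 in ECs. In DoubleNegative sums r was 0.0762, both over 12729 genes. Alternatives were DESeq2 1.42.0, RLE factors, no filter on low counts, the sort (between gates, the preparation) as a block, thinned or deep wells, wells chosen by markers and leaving out each sum. The muscle-marker alternatives, the fit without the DoubleNegative well with endothelial markers and the left-out sums of the class comparison were added after the data were seen. Scripts were tested on simulated counts, where DESeq2 recovered more changed genes than edgeR but also made more false calls. At a log2 change of 1 its false calls were 21 (KO versus WT ECs), 23 (gates) and 46 (classes). Those of edgeR were 1, 0 and 0. Counts of genes called by DESeq2 carry this limit. Members and gene lists were chosen with earlier results of these data known. Named genes are the members, their paralogs in the shares, the genes of the lists that were called and the markers.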

Additional observations from a re-analysis of the deposited data

Results flagged for a closer look

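In Cd31- cells, the WT DoubleNegative sum of sort 1 stood apart from the other 3 in Hk1, at 49.74 CPM against 6.68 to 10.8 CPM. In ECs, the KO Endothelial sum of sort 1 stood apart in Pfkfb3, at 53.02 CPM against 83.6 to 87.6 CPM. These were the 2 sums set apart by a gap rule for 4 samples among 20 groups examined, and chance marks about 1 in 20 groups.

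For 3 members the change from WT to KO within the same sort went one way in both Endothelial pairs and the other way in both DoubleNegative pairs. The interaction estimate (change in ECs less change in Cd31- cells, log2) was -0.587 for Pfkp, 0.879 for Pgk1 and -1.88 for Eno1. None of these passed the edgeR test of the interaction (adjusted p = 1.00 for each). No share of all genes with this pattern is given here, so the count of 3 members is a description. Eno1 rested on 9, 1, 19 and 5 counts in the DoubleNegative sums (WT sort 1, WT sort 2, KO sort 1, KO sort 2).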

How the results depend on the processing

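Hk2, Pfkp and Pfkfb3 were called between the gates under all 17 alternatives, and no member reversed there. With thinned wells, the KO minus WT change in ECs reversed for Pfkl (0.43) and Pgk1 (-0.22), and in DoubleNegative sums for Pfkp (-0.083). When 1 Endothelial sum was left out the changes ran from -0.57 to 0.28 for Pfkl, -0.77 to 0.15 for Pfkfb3, -0.028 to 0.18 for Aldoa, -0.012 to 0.15 for Pgk1, -0.77 to 0.0040 for Eno1, -0.016 to 0.31 for Pkm, -0.35 to 0.33 for Ldha and -6.51 to 0.0043 for Hk2. The causes were not tested.

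Genes called between KO and WT ECs, 0 by edgeR, came to 1 with the sort as a replicate block, 1 with RLE factors, 1 with ECs chosen by markers, 8 with thinned wells, 37 with DESeq2, 104 without a filter on low counts and 5 to 311 with 1 sum left out. In DoubleNegative sums they came to 24 without a filter, 5 with DESeq2 and 0 to 79 with 1 sum left out, and in the interaction to 163, 46 and 0 to 42. Between sorts they came to 215, 106 and 0 to 89, and to 4 with genotype as a block. Between the gates 2423 genes were called, 1355 to 2542 with 1 sum left out and 1964 with the preparation as a block. Between the classes 1018 were called, 1544 with DESeq2 and 672 to 1013 with 1 sum left out (672 without the KO fibroblast-marker sum). Apart from these counts, the block changed no call of a member in the edgeR fits.

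Differences in family share between the gates no longer passed under some alternatives. With thinned wells they were 61.36 (Hk1), 19.77 (Pfkl), -19.37 (Pfkp), 24.96 (Eno1) and 26.12 (Ldha) percentage points, and with wells above 100000 counts 60.17, 25.52, -25.72, 47.89 and 39.46. Paired by preparation as a block, the differences stayed 64.83, 23.40, -23.59, 38.71 and 33.76, and no p below 0.125 was possible. With 1 sum left out they ranged over 57.56 to 80.13, 20.75 to 25.48, -26.16 to -21.28, 32.71 to 44.0 and 29.11 to 40.99, where no p below 0.0571 was possible. Between genotypes the share of Pfkl reversed with thinned wells, to 2.77 percentage points. Thinning set the share of ECs with a count to 38.91% (Hk1), 28.11% (Pfkl), 29.59% (Pgk1), 3.11% (Eno1) and 88.91% (Pkm).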

Other observations

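Over the 676 Endothelial wells, thinned to 20000 counts and with log2(CPM + 1) centred within each sum, correlations among the members were weak. Pearson's r between 2 members lay between -0.00506 and 0.114 over 28 pairs of the 8 members found in at least 10% of wells, with a median of 0.0418, beside 0.0196 over all pairs of 7788 genes. Wells share libraries and sorts, so these values are a description. The genes most like Aldoa were Ptma (r = 0.269) and Akr1a1 (0.266), and those most like Pkm were Sepp1 (0.252) and Sept2 (0.222).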
